A study of Caenorhabditis elegans with 2 samples.

Results

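The nuclear pore and nuclear transport genes of Caenorhabditis elegans were examined as sites of chromatin bound by eGFP-tagged C34F6.9 in second-stage (L2) larvae. Chromatin immunoprecipitation followed by sequencing (ChIP-seq) recovers DNA fragments that carry a protein of interest, and the places where fragments pile up are reported as peaks, each with a summit. There was 1 group, whole L2 larvae of pooled sex from strain OP324, which carries unc-119(ed3) III and the insertion wgIs324 for the tagged gene, with 2 biological replicates. No untagged or other control strain was analysed here, the age beyond the larval stage is unknown per the labels, and whole animals give no information on which tissue a peak comes from. The genes were all protein-coding genes whose symbol is npp-, imb-, ima-, xpo- or ran- followed by a number, and there are 40 of them among 19973 protein-coding genes on the nuclear chromosomes. They comprise 26 nucleoporin (npp-) genes and 14 genes for transport factors.

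Nuclear pores are large protein assemblies that pierce the nuclear envelope. Scaffold nucleoporins form its rings, nucleoporins with flexible repeats fill the channel, and others project to the cytoplasm or form a basket inside the nucleus. Importins and exportins carry proteins and RNA through the channel, and the small GTPase Ran gives the traffic its direction, because its GTP-bound form is kept high in the nucleus and low in the cytoplasm. In the worm these genes also act in spindle assembly and in rebuilding the envelope after mitosis, and the L2 stage is one of continued division in the seam, neuroblasts and germ line.

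Most of these genes had a peak just upstream. The deposited optimal list held 5692 peaks in the ce11 build, and a gene is called here where the distance between a summit of that list and an annotated 5′ end, over all its transcripts, was at most 500 bp. Of the 40 genes, 29 were called (72.5%), and over all protein-coding genes the share was 17.04%. The called genes were 17 of 26 nucleoporin genes and 12 of 14 transport factor genes. The peak lists hold no read counts, so the depth of the libraries is unknown and no test was made; the shares are a description of these genes beside all others. Each of the 29 genes had a summit of its own, so no peak was counted for 2 of them. With the outermost 5′ end only, 29 of 40 genes were called, against 16.1% of all coding genes. With ranks 1 to 2846 only, 22 of 40 were called, against 11.1%. With all 30000 pooled regions, background included, 30 of 40 were called, against 36.95%. With the 5′ end required to lie inside the peak interval, 7 of 40 were called, against 7.70% of all coding genes.

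**Figure D1:**
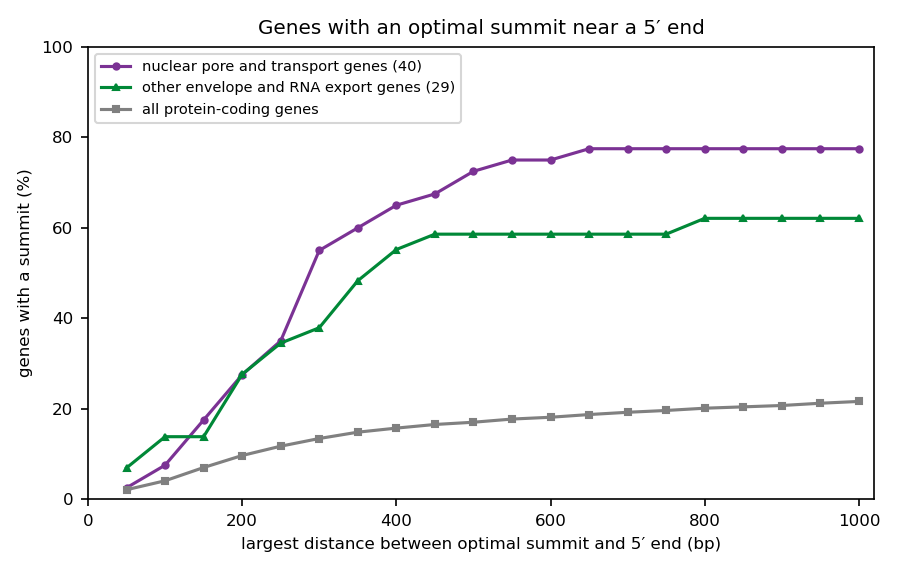
Share of genes (vertical axis, percent) with an optimal summit no farther from a 5′ end than the distance on the horizontal axis (bp), for the 40 nuclear pore and transport genes, 29 other nuclear envelope and RNA export genes, and all 19973 protein-coding genes. The nuclear pore and transport genes stand at 35.0% within 250 bp, 72.5% within 500 bp and 77.5% within 1000 bp, and all coding genes at 11.7%, 17.04% and 21.6%.

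By chromosome, the calls were spread over the 5 autosomes. On I, 8 of 13 of the genes were called, against 24.8% of all coding genes there, and on II 7 of 8, against 16.1%. III and IV each had 6 of 8 called, against 25.5% of all coding genes on III and 16.9% on IV. V had 2 of 3, against 10.6%, and none of the 40 lies on X. Genes with several annotated 5′ ends have more chances to be called: among the 17 with at least 2, 13 were called, against 26.1% of such coding genes, and among the 23 with 1 annotated 5′ end, 16 were called, against 13.6%.

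The sequences at 7 summits with ranks from 255 to 1769 are shown. Taking at each called gene the summit nearest a 5′ end, they are the highest-ranked on the chromosomes named beside them, apart from ran-5. They were not picked for the 6-mers they hold or lack. They run from 50 bp before to 50 bp after the summit on the strand of the named gene, in ce11, from the RefSeq copy of the assembly. Capitals mark matches, on either strand, to 5 6-mers, namely GAGAGA (motif 1), CGTCTC (motif 2), ACGCAG (motif 3), AAAGAG (motif 4) and AGAGTG (motif 5). Of the genes with peaks of higher rank than npp-1, imb-1, imb-3, npp-14, ima-2, npp-13 and npp-7 lie on another chromosome and are not shown. Nor is ran-5 shown, because its window overlaps a coding exon. Of all these genes not shown, imb-3 holds motif 3, ima-2 motif 4 and npp-7 motif 5, and the others none.
npp-3, chrII:11874789-11874889, minus strand: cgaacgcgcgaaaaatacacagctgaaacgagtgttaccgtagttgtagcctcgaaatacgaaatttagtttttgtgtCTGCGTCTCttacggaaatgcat
ran-1, chrIII:10748145-10748245, minus strand: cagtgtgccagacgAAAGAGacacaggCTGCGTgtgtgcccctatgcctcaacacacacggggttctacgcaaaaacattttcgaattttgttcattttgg
npp-20, chrIV:1496085-1496185, minus strand: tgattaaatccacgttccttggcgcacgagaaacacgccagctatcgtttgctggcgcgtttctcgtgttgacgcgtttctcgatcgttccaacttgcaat
npp-10, chrIII:6019885-6019985, minus strand: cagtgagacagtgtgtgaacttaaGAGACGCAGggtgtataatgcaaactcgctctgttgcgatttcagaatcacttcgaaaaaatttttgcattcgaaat
npp-19, chrII:10798618-10798718, minus strand: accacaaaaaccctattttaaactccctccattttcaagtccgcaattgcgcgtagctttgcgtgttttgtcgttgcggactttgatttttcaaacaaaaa
npp-8, chrIV:1595935-1596035, minus strand: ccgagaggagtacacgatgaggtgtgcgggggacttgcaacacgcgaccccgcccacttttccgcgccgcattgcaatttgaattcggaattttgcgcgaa
npp-1, chrIV:9858252-9858352, plus strand: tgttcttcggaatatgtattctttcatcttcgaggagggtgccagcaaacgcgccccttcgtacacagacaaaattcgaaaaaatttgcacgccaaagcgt

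The importin beta family and exportins, the carriers that bind cargo and Ran, were called at 6 of 6 genes and held the highest-ranked peak. At imb-1 (WBGene00002075), the importin beta gene, the peak ranked 67 in the optimal list, 41 in replicate 1 and 137 in replicate 2, with the summit at -105 bp from the 5′ end (a negative distance is upstream). That summit lay nearer to mfsd-13.1 on the opposite strand, at -44 bp. Likewise, the xpo-3 summit lay nearer to C49H3.3 (-26 bp) and that of xpo-2 to nol-14 (-250 bp, against -253 bp). Rank 1 is the highest of the authors' signal values, which are on no scale shared between lists. At imb-3, which encodes a homologue of importin 5, the ranks were 224, 269 and 205 in the optimal list, replicate 1 and replicate 2, at -254 bp. Both genes thus lay near the top of every list. The transportin gene imb-2 ranked 1879, 1997 and 1872 in the same order of lists, at -280 bp, and xpo-3, for the tRNA exportin, ranked 2438, 2550 and 2308 at -292 bp. The replicate ranks of imb-2, imb-3 and xpo-3 lay within 1.5-fold of the optimal rank, and those of imb-1 did not in either replicate.

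The CRM1 and CAS exportin genes had peaks whose summits the replicates placed differently. At xpo-1 (CRM1, the carrier for proteins with a leucine-rich export signal) the optimal peak ranked 1901 at -422 bp, and replicate 1 had it at rank 1613. Replicate 2 had its summit 114 bp away, at rank 1713 and -308 bp. At xpo-2 (CAS, which returns importin alpha to the cytoplasm) the optimal peak ranked 3637 at -253 bp and replicate 2 had it at rank 5842. The summit of replicate 1 lay 114 bp from it, at rank 3068 and -367 bp. Both genes therefore had a region in each replicate, but not within 100 bp of the optimal summit in both, and that of xpo-2 in replicate 2 ranked beyond the top 5692.

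All 3 importin alpha genes, the adaptors that recognise the classical nuclear localisation signal, were called. The gene ima-2 ranked 512 in the optimal list, 429 in replicate 1 and 707 in replicate 2, at -330 bp. Its relative ima-3 ranked 1964, 1437 and 2758 in the same lists, at -222 bp, and ima-1 ranked 2508, 2184 and 3523, at -286 bp. Each of the 3 stood higher in the order of replicate 1 than in that of replicate 2.

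In the Ran cycle, 3 of 5 genes were called. The gene for Ran itself, ran-1, ranked 578 in the optimal list, 629 in replicate 1 and 542 in replicate 2, at -467 bp. The Ran-binding protein gene ran-5 ranked 522, 491 and 539, at -248 bp, and ran-3, for the exchange factor RCC1, ranked 3311, 3375 and 3346, at -305 bp. Neither ran-2, for the GTPase-activating protein, nor ran-4, for the Ran importer NTF2, was called. The summit nearest ran-4 ranked 854 but lay at -513 bp, just outside the window, and in replicate 2 it lay at -495 bp with rank 947. On the other side of the limit, the farthest called summit was that of npp-7 at -490 bp.

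**Figure D2:**
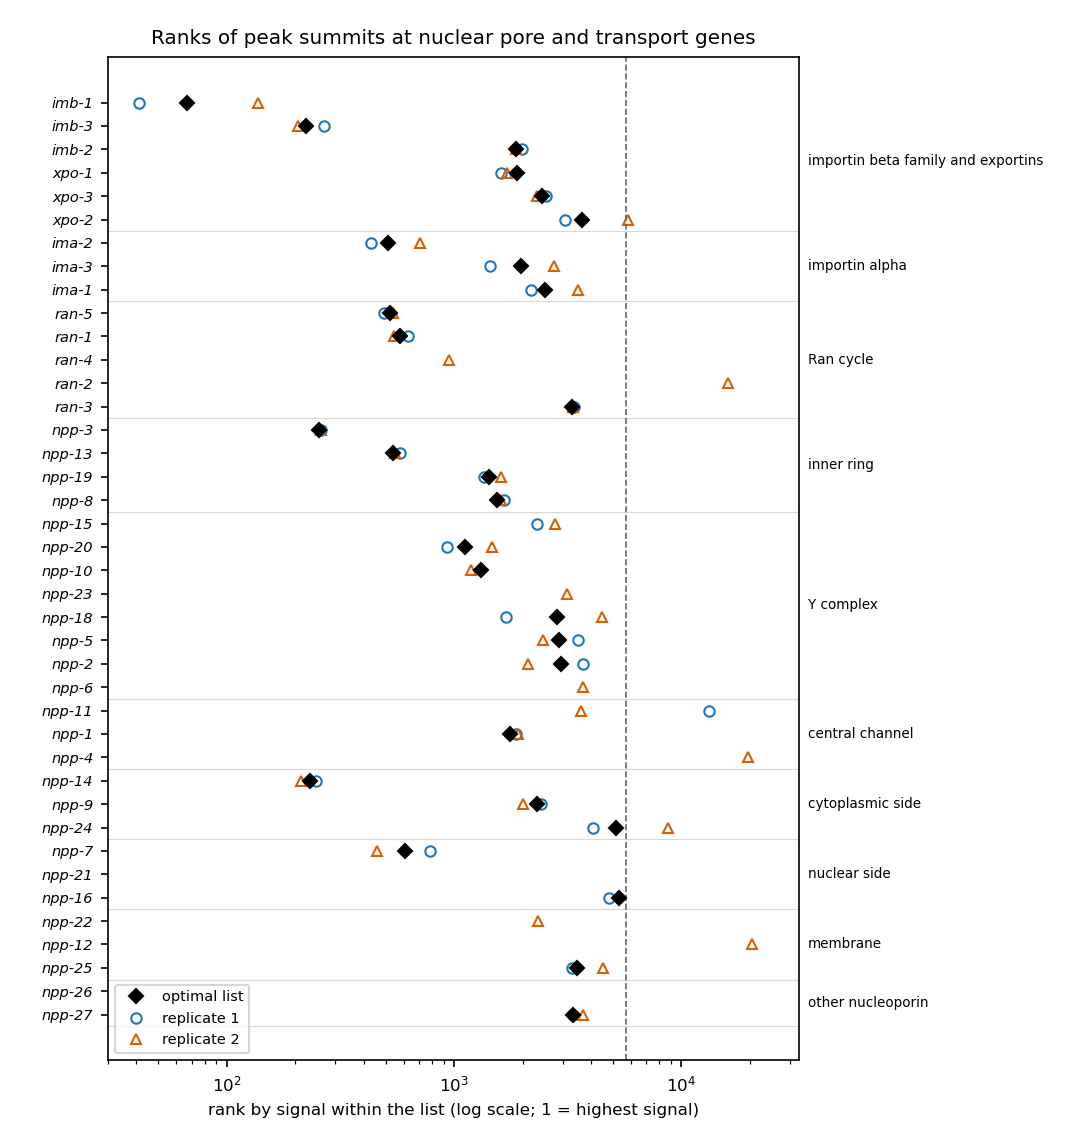
Rank by signal (horizontal axis, log scale, 1 is the highest) of the peak at each of the 40 genes, grouped by role, in the optimal list (diamonds), replicate 1 (circles) and replicate 2 (triangles); replicate symbols are the region matched to the optimal summit within 100 bp or, where there is none, the highest-signal region within 500 bp of a 5′ end. The dashed line is the length of the optimal list, 5692, and a missing symbol is a list without a region there, as for npp-10 in replicate 1.

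The inner ring of the pore, which anchors the scaffold to the membrane, was called at 4 of 4 genes. At npp-3 (Nup205) the peak ranked 255 in the optimal list, 259 in replicate 1 and 260 in replicate 2, at -51 bp. At npp-13 (Nup93) it ranked 539, 577 and 548 at -267 bp, at npp-19 (Nup35) 1423, 1357 and 1616 at -189 bp, and at npp-8 (Nup155) 1538, 1655 and 1611 at -161 bp. The replicates gave all 4 genes the same order as the optimal list except that npp-19 and npp-8 changed places in replicate 2.

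The Y complex, the outer scaffold that also loads onto kinetochores and mitotic chromatin, was called at 5 of 8 genes, with ranks from 1114 to 2944. At npp-20 (Sec13) the peak ranked 1114 in the optimal list, 930 in replicate 1 and 1475 in replicate 2, at -113 bp. At npp-18 (Seh1) it ranked 2836, 1684 and 4456 in the same lists, at -165 bp. At npp-5 (Nup107) it ranked 2901, 3523 and 2458 at -135 bp, and at npp-2 (Nup85) 2944, 3678 and 2119 at -379 bp. The replicates thus differed in rank at npp-20, npp-18, npp-5 and npp-2, most at npp-18. The peak at npp-10, the gene for Nup98 and Nup96, ranked 1317 in the optimal list and 1192 in replicate 2, at -373 bp in both. Replicate 1 had no region within 13340 bp of that summit, which makes it 1 of 29 among the 5692 optimal peaks with no replicate 1 region within 500 bp. The npp-10 peak thus had a match in replicate 2 only, and the lists hold no reads to show what each replicate gave.

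The remaining Y complex genes had peaks in the replicates but not in the optimal list. At npp-15 (Nup133) replicate 1 had a summit at -334 bp with rank 2315 and replicate 2 one at -342 bp with rank 2775, while the pooled list had no region nearer than -996 bp. Of 4270 high-signal peaks that the replicates shared within 100 bp, 15 had no pooled region within 500 bp in this way. At npp-6 (Nup160) and npp-23 (Nup43) only replicate 2 had a region within 500 bp, at -375 bp with rank 3686 and at -141 bp with rank 3138. With the 5692 highest-signal peaks of a single replicate, 5 of 8 Y complex genes had a summit within 500 bp in replicate 1 and 8 of 8 in replicate 2.

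Among the other nucleoporins the calls were more mixed. On the cytoplasmic side 3 of 3 were called: npp-14 (Nup214) ranked 233 in the optimal list, 248 in replicate 1 and 212 in replicate 2, at -300 bp. The Nup358 gene npp-9 ranked 2309, 2415 and 2007 at -129 bp, and npp-24 (Nup88) ranked 5134, 4083 and 8757 at -44 bp, near the foot of the list. On the nuclear side 2 of 3 were called. There npp-7 (Nup153) ranked 607, 787 and 457 in the optimal list, replicate 1 and replicate 2. The Nup50 gene npp-16 ranked 5336 in the optimal list and 4816 in replicate 1 at -84 bp, and replicate 2 had no region within 500 bp of its 5′ end. The basket gene npp-21 (TPR) had none within 500 bp in any list.

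Channel and membrane nucleoporin genes were called at 1 of 3 each. In the channel npp-1 (Nup54) ranked 1769 in the optimal list, 1867 in replicate 1 and 1907 in replicate 2, at -186 bp. Uncalled npp-11 (Nup62) had a pooled region at -200 bp with rank 5757, just beyond the end of the optimal list, with rank 13216 in replicate 1 and a region of rank 3632 at -157 bp in replicate 2. Its partner npp-4 (Nup58) had a single weak region, of rank 19716 in replicate 2. In the membrane, npp-25 (TMEM33) ranked 3464, 3309 and 4523 in the optimal list, replicate 1 and replicate 2, at -265 bp. The gp210 gene npp-12 had its nearest optimal summit at -649 bp, of rank 1155. That summit lay nearer to T23H2.3 on the opposite strand, at -190 bp. The Ndc1 gene npp-22 had a peak in replicate 2 alone, at -174 bp with rank 2335. Of the last pair, npp-26 (Gle1, an mRNA export factor) had no region within 500 bp in any list, and npp-27, for a protein with a C3HC-type zinc finger, was called. The summit nearest a 5′ end of npp-27 lay inside the gene, at -249 bp from an internal 5′ end with rank 3338. A higher peak, of rank 1653, lay at -260 bp from its outermost 5′ end. That peak lay nearer to ntl-4 on the opposite strand, at -68 bp.

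For most of these called genes the replicate ranks lay near the optimal rank. Within 100 bp of the optimal summit, replicate 1 had a region for 27 of the 29 genes and replicate 2 for 27, and both did for 25 (86.2%, against 96.9% of the 3375 other called coding genes). The 4 exceptions are npp-10, npp-16, xpo-1 and xpo-2, described above. The matched summits lay a median of 8 bp from the optimal summit in replicate 1 and 11 bp in replicate 2. Where matched, the rank lay within 1.5-fold of the optimal rank for 25 of 27 genes in replicate 1 and 23 of 27 in replicate 2. The exceptions were imb-1 and npp-18 in both replicates, and npp-24 and xpo-2 in replicate 2. The offsets and the 1.5-fold counts were not computed for the other called coding genes. They therefore do not show that these genes held their ranks better than others. The optimal list was made from both replicates, so these matches are not independent of the call.

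Called on each replicate alone, from its 5692 highest-signal peaks, 29 of 40 genes had a summit within 500 bp in replicate 1, against 17.1% of all coding genes, and 32 of 40 in replicate 2, against 16.7%. Both replicates called 26 genes (65.0%, against 14.8% of all coding genes), 9 were called in 1 replicate and 5 in neither. The 5 in neither are npp-4, npp-12, npp-21, npp-26 and ran-2.

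The median rank of the called genes was 1879, with quartiles of 578 and 2901, and that of the other called coding genes was 2090, with quartiles of 972 and 3504. Among the top 10% of the list by signal lay 7 of the 29 (24.1%), namely imb-1, imb-3, npp-14, npp-3, ima-2, ran-5 and npp-13, against 14.9% of the other called genes. The 2 sets overlap over nearly the whole list, and the lists give no error on a rank beyond the replicate values above. In replicate 1 alone the median rank was 1655 for these genes and 2034 for the others, and in replicate 2 alone 1890 and 2225. Of the 7 in the top 10%, imb-1, npp-14 and ran-5 had a summit nearer to a neighbour on the opposite strand.

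All 29 summits lay upstream of the nearest annotated 5′ end. At npp-24 and npp-27 that end is an internal one, and the summit lay within the gene span. The median distance was -253 bp with quartiles of -300 and -161 bp, and at the 3375 other called coding genes it was -167 bp with quartiles of -270 and -84 bp. Of those other genes 90.4% had the summit upstream. Of the 29, 9 lay nearer to the 5′ end than the median of the other called genes, so the ranges overlap. Some of the 29 summits lay nearer to a neighbour on the opposite strand. With each summit given to the nearest coding gene only, 19 genes kept one and their median was -189 bp. No value for the other genes under that setting is given here. The distances ran from -490 to -44 bp, and the transport factor genes other than imb-1 all lay beyond -200 bp. In replicate 1 alone the median was -274 bp, against -164 bp for other called genes, and in replicate 2 alone -256 bp, against -170 bp.

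**Figure D3:**
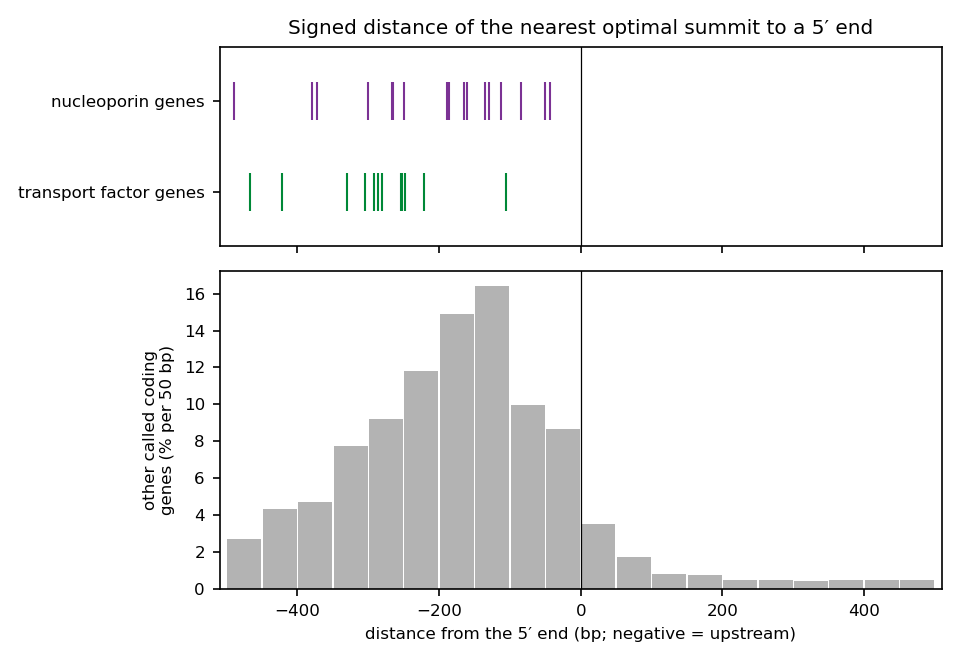
Distance of the nearest optimal summit from a 5′ end (horizontal axis, bp, negative is upstream) for called nucleoporin genes and transport factor genes (upper panel, 1 tick a gene) and for the 3375 other called coding genes (lower panel, percent in each 50 bp). The ticks run from -490 to -44 bp with a median of -253 bp, against a median of -167 bp in the lower panel. Some ticks mark summits that lay nearer to a neighbour gene, as the text describes.

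An annotated 5′ end need not be where transcription starts, because many worm transcripts receive a spliced leader that replaces their original 5′ end. The last bases before such an end then read as a splice acceptor. Of the 29 genes, 22 (75.9%) had AG just before the 5′ end nearest the summit and 14 (48.3%) had TTTCAG, against 44.9% and 22.6% of the other called coding genes. Over all coding genes, taking the outermost 5′ end, TTTCAG stood before 12.3%. Ends after AG had their summit at a median of -254 bp among these genes and -216 bp among the other called genes, and ends not after AG at -249 and -121 bp. The letters describe the annotation and were not tested against transcript data.

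Many of the peaks lay between the gene and a neighbour that runs the other way. For 15 of the 29 genes (51.7%, against 39.4% of the other called genes) another coding gene also began within 500 bp of the summit, in each case on the opposite strand. Such a summit could not be assigned to one gene of the pair. The partners include genes for nuclear and RNA processes, with top-2 (DNA topoisomerase 2) opposite npp-3, cel-1 (the mRNA capping guanylyltransferase) opposite npp-14, dkc-1 (a subunit of the H/ACA ribonucleoprotein complex) opposite ran-1 and nol-14 (a nucleolar protein) opposite xpo-2. Others are dvc-1 (a DNA-dependent protease) at ima-1, uvs-1 (a UV-response scaffold protein) at xpo-1, cyk-3 (a ubiquitin hydrolase) at npp-10, unc-40 (the netrin receptor) at npp-7 and mrps-10 (a mitochondrial ribosomal protein) at npp-25. The rest are mfsd-13.1 at imb-1, F59A2.5 at npp-9, ndab-1 at npp-16, C49H3.3 at xpo-3, C26D10.3 at ran-3 and R12C12.6 at ran-5. At 10 of the 15 the summit lay nearer to the neighbour, as at cel-1 (-36 bp), mfsd-13.1 (-44 bp), C49H3.3 (-26 bp), C26D10.3 (-29 bp), dvc-1 (-58 bp) and R12C12.6 (6 bp). When each summit was given to 1 coding gene alone, by distance, 19 of the 40 genes kept one, against 13.8% of all coding genes. Non-coding genes with a 5′ end within 500 bp of a summit were cel-mir-2207 at npp-5, K01G5.11 and K01G5.12 at ran-1, R12C12.13 at ran-5, ZK742.8 at xpo-1 and C49H3.14 at xpo-3.

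The genes were also grouped by the arrangement of their upstream neighbour. Where the nearest coding gene upstream ran the other way with a gap of up to 500 bp, 10 of 12 of the genes were called, against 46.2% of all coding genes so arranged. With a larger gap 13 of 17 were called, against 18.1%. Where the upstream neighbour lay on the same strand more than 500 bp away, 4 of 5 were called, against 10% of all coding genes so arranged. In the close same-strand arrangement, in which a gene may share a transcript with the gene before it, 2 of 6 were called, against 12.3%. Those called were npp-1 and npp-24, and those not called were npp-22, npp-23, npp-26 and ran-2. In replicate 2 alone, npp-22 and npp-23 had a top peak and npp-24 did not, which gives 3 of 6. The difference between the classes was not tested, and the close same-strand class holds 6 genes. Of these, ran-2 begins 479 bp after the end of npp-15, whose own upstream peak appeared in both replicates but not in the optimal list. In npp-24 the summit lay within the gene span, before an internal 5′ end, and the gene's outer end overlaps cyp-44A1.

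**Figure D4:**
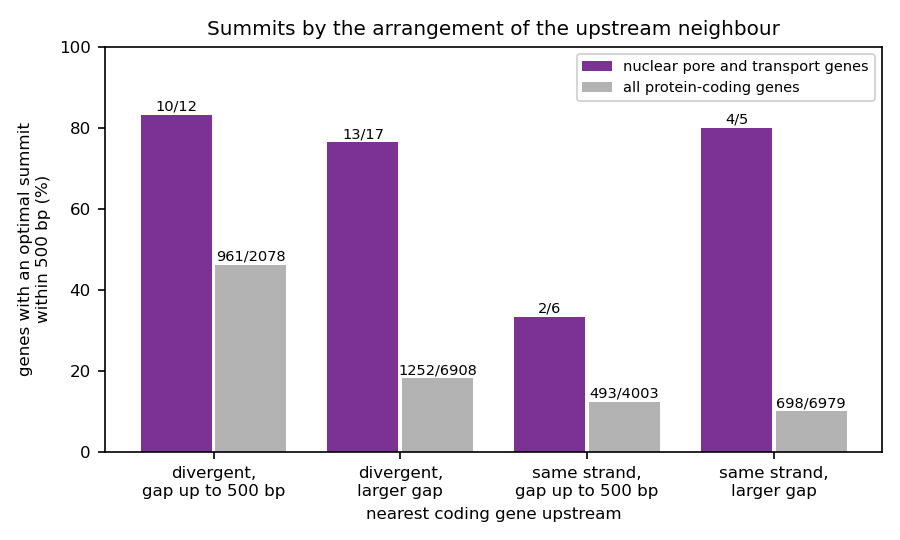
Share of genes called in the optimal list (vertical axis, percent) by the strand and gap of the nearest coding gene upstream (horizontal axis), for the nuclear pore and transport genes and all coding genes, with the counts above each bar. The close same-strand class has 2 of 6 of the genes called, and the other classes 10 of 12, 13 of 17 and 4 of 5.

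The 6-mers most in excess at the other optimal summits over their flanks were not all common at these. The 5 shown in capitals above were ranked on the 5663 optimal summits that are not at these genes, by the share of 101 bp windows around the summit that hold them on either strand less the share in windows 300 bp to either side, leaving out those nearly the same as a higher one. They can overlap each other. GAGAGA was present at 1 of the 29 summits (3.45%), npp-24, against 26.0% of 2712 summits at other called coding genes and 6.38% of equal windows before all coding genes. CGTCTC was present at 3 (10.3%), against 19.1% and 3.31%, and AGAGTG at 1 (3.45%), against 11.6% and 3.51%. ACGCAG was present at 5 (17.2%), namely imb-3, npp-3, npp-10, ran-1 and ran-3, against 488 of 2712 summits and 2.72% of windows. AAAGAG was also present at 5 (17.2%), against 17.2% and 8.96%. In the flanking windows of these genes the shares were 12.1% for GAGAGA, 10.3% for CGTCTC and 3.45% for AGAGTG. They were 1.72% there for ACGCAG and 10.3% for AAAGAG. At least 1 of the 5 was found at 11 of the 29 summits (37.9%), in 16 of the 58 flanking windows (27.6%), at 51.3% of the summits at other called genes and in 19.6% of windows before all coding genes. A match is only a run of letters, and with 29 windows each share rests on few genes.

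**Figure D5:**
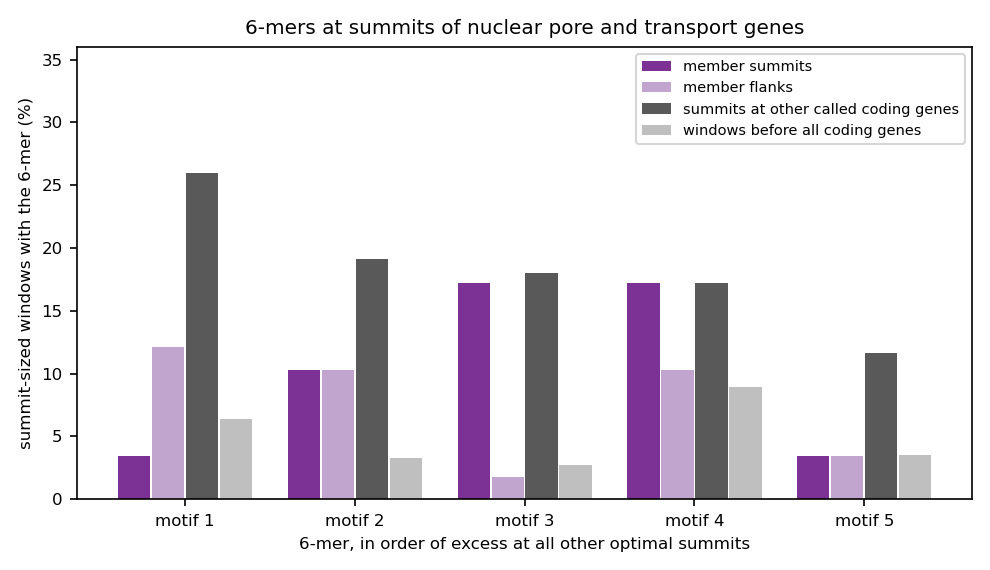
Share of 101 bp windows (vertical axis, percent) that hold each of 5 6-mers on either strand, numbered as in the text on the summit sequences, at the summits of the called nuclear pore and transport genes, in their flanks, at summits of other called coding genes and before all coding genes. At these genes GAGAGA stands at 3.45% and AGAGTG at 3.45%, and at other called genes they stand at 26.0% and 11.6%.

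Of these 6-mers, CTGCGT (the other strand of ACGCAG) and CGTCTC join in the run CTGCGTCTC, which the summit windows of npp-3 and npp-10 hold, as shown above. It was present in 2 of the 29 windows, in 10.1% of windows at summits of other called coding genes and in 0.786% of windows before all coding genes. At ran-1 the 6-mers ACGCAG and AAAGAG lay apart. The windows at npp-20, npp-19, npp-8 and npp-1 held none of the 5. The median GC content was 43.6% at their summits, against 44.6% at those of other called genes, and 33.7% in their flanks; its part in the 6-mer shares was not tested.

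Other genes of the nuclear envelope and of RNA export also had peaks often. Of 29 such genes listed beside the pore genes, 17 were called (58.6%, against 17.04% of all coding genes), with a median rank of 1915 and a median distance of -186 bp. The highest was baf-1, for the chromatin-bridging protein that helps the envelope reform, which ranked 407 in the optimal list, 430 in replicate 1 and 468 in replicate 2. The RNA helicase gene hel-1 ranked 518 at -257 bp, and nxf-1, for the main mRNA export receptor, ranked 911 at -364 bp. The envelope genes called were lem-4 (rank 582), lem-2 (975), emr-1 (1650), lem-3 (2027), mel-28 (2072), cnep-1 (3016), anc-1 (3456) and unc-84 (5565). The RNA export genes called were thoc-5 (rank 1356), aly-2 (1460), ddx-19 (1915), aly-3 (2297), ncbp-1 (2916) and ncbp-2 (4910). Not called were lmn-1, for lamin, with its nearest optimal summit at -1028 bp, and unc-83, sun-1, zyg-12, samp-1, lpin-1, nxf-2, aly-1, thoc-1, thoc-2, thoc-3 and thoc-7. At mel-28, which encodes the protein that seeds new pores on chromatin, the rank was 2155 in replicate 2 and replicate 1 had no region within 100 bp of the summit. The same held for ncbp-1, with rank 4156 in replicate 2.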

How the data were processed

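The labels describe 2 biological replicates of eGFP-C34F6.9 ChIP-seq in whole L2 larvae. Per the deposited file listing, each replicate's list (30000 peaks and background regions) was called by the authors on its alignments with a control, the pooled list on both replicates, and the optimal list by a threshold on the irreproducible discovery rate (IDR) from these 3 lists. Aligner, caller and versions: not given in the sources used here. Signal values were deposited by the authors for each peak and served only to rank peaks inside one list. All −log10 q-values deposited for the 5692 optimal peaks are 4.07 and rank nothing. The optimal list equals the pooled peaks of highest signal. The lists hold no counts, so depth and its precision are unknown.

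Summits are the deposited offsets, 1-based in ce11; its chromosomes have the lengths of WBcel235. Genes came from Ensembl release 115 and sequence from RefSeq. Distances are to the nearest 5′ end of any transcript. The assignment of summits was tested on simulated positions. No tests between groups were possible, since there is 1 group. The replicates' spread may include technical differences. All 40 members may be named; of the other 29 pathway genes those called are named in full; the arrangement classes, the acceptor letters and the comparison with other called genes were chosen after values were seen. The members, lists and rules were chosen with earlier results of these data known. The ce10 lists were not used. The alternatives were windows of 250 and 1000 bp, the outermost 5′ end, the nearest coding gene, ranks 1 to 2846, each replicate alone, all pooled regions, a 5′ end inside the peak interval, matching within 50 and 200 bp, 6-mer windows of 25 and 100 bp to each side and, added later, the strongest summit in the window. Python 3.11.15, numpy 2.4.6, pandas 2.3.3 and matplotlib 3.10.9 were used.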

Additional observations from a re-analysis of the deposited data

How the results depend on the processing

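The count of called genes stayed between 22 and 31 of 40 for 1000 bp, the outermost 5′ end, ranks 1 to 2846 and all pooled regions, and between 29 and 32 with either replicate left out. The share of all coding genes ran from 11.1% for ranks 1 to 2846 to 36.95% for all pooled regions. With a replicate left out that share was 16.7% or 17.1%. Within 250 bp the count was 14 of 40, against 11.7% of all coding genes. With each summit given to the nearest coding gene only it was 19 of 40, against 13.8%. Where the 5′ end had to lie inside the peak interval it was 7 of 40, against 7.70% of all coding genes. For 8 genes the summit lay between 250 and 300 bp. The envelope and RNA export count, of 29 genes, was 10 within 250 bp, against 11.7% of all coding genes. It was 16 to 17 with a replicate left out, against 16.7% to 17.1%. The median rank was 1370 for ranks 1 to 2846, by construction, and 1655 to 1890 with a replicate left out. The median distance was -148 bp within 250 bp, by construction, -189 bp with the nearest coding gene only, and -274 to -256 bp with a replicate left out. Summits shared with another coding 5′ end numbered 3 within 250 bp, and windows of 25 bp to each side held 1 of the 5 6-mers or more at 7 summits; the causes were not tested. Under the other settings the envelope and RNA export count was 12 to 23. The 12 was for ranks 1 to 2846, against 11.1% of all coding genes, and the 23 for all pooled regions, against 36.95%. Also under the other settings, the median rank was 1769 to 1922 and the median distance -257 to -248 bp. With 100 bp to each side, 15 summits held 1 of the 5 6-mers or more. Matching within 50 and 200 bp gave 22 and 27 genes with a match in both replicates. No paired analysis was possible because there is 1 group. Without read counts, a gene not called is only one with no listed peak there.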

Other observations

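The summit windows of ima-1 and npp-9 share a run of 15 bases, CGTAAATCGACACGC, at chrV:11239348-11239362 and chrIII:3404644-3404658 on the plus strand of ce11. It was found after the windows had been compared with each other. Of the 5663 other optimal summits, 1 held the full run within 50 bp, as did 1 of 19973 equal windows before all coding genes. Parts of the run were less rare. The stretches of 12 bases within it, taken from its start to its end, were at 42, 28, 5 and 1 of the 5663 summits. Both genes have middling peaks, of rank 2508 at ima-1 and 2309 at npp-9.

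The 6-mers most in excess at these summits over those of other called coding genes, picked for that excess, included ACACGC, which was present at 8 of the 29 summits (27.6%) and in 1 of 58 flanking windows (1.72%), against 8.81% of summits at other called coding genes. The run shared by ima-1 and npp-9 ends in ACACGC, so both genes are among the 8. AATTTG and AAATTT, which overlap each other, were each at 10 of 29 summits (34.5%), against 11.6% and 12.1% at other called genes. They were in 13.8% and 20.7% of the 58 flanking windows, and in 19.9% and 25.9% of windows before all coding genes. TCGAAA was at 9 of 29 summits (31.0%), against 11.4% at other called genes. It was in 13.8% of the flanking windows and 11.8% of windows before all coding genes.

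The lists differ at places where peaks of high signal stand. In replicate 2, 57 of the top 5692 peaks by signal had no region of the pooled list or of replicate 1 within 500 bp, and in replicate 1, 10 of its top 5692 had none in the pooled list or replicate 2. The replicate 2 peaks at npp-6, npp-22 and npp-23 are among the 57. The gene rae-1, an mRNA export factor that binds the pore but lies outside the naming rule, had an optimal summit at -85 bp with rank 395.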
